A study of Mus musculus with 18 samples.

Results

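Liver gene expression was compared between untreated Lipa-/- mice and untreated WT mice at the 12-weeks time point. The comparison used 6 of the 18 mice of the series, 3 per group, and covered 14535 of the 35441 genes listed, those whose reads over all 18 mice came to more than 100. Lipa-/- mice carried a deletion of exon 4 of Lipa in all cells. The deletion was made by crossing a Lipa tm1a allele with mice that expressed Cre from the CMV promoter, and the line was backcrossed on the C57/BL6N background. WT mice were littermates matched for age and sex, and all mice were males on standard chow. Neither group received the rAAV8 vector. The time point counts from the injection of the treated groups at 10 to 12 weeks of age, and the labels give it as 3 months. The remaining 12 mice, which were treated Lipa-/- mice of the same time point and 3 groups of 34-weeks, entered the statistical fit only to estimate the spread between mice, and the untreated mice of 34-weeks were used for 1 further comparison.

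Lysosomal acid lipase, the product of Lipa, cleaves cholesteryl esters and triglycerides that reach the lysosome from lipoproteins or by autophagy. When the enzyme is missing, these lipids stay in the lysosomes of hepatocytes and macrophages. Macrophages that take up lipid are known for a shared set of genes that includes Trem2 and Gpnmb, whereas resident Kupffer cells, the macrophages of the normal liver, are known by Clec4f and Timd4. TFEB, TFE3 and MITF are transcription factors that switch on genes of lysosomal enzymes through the sequence CACGTG. Hepatocytes of male mice make large amounts of major urinary proteins under the pulsatile secretion of growth hormone.

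Levels are given as CPM, the reads of a gene scaled to a common library size with TMM factors, for WT mice 1, 2 and 3 and for Lipa-/- mice 5, 8 and 9 in that order. Lipa itself (chromosome 19, 34469712 to 34522163 on the minus strand of GRCm39) stood at 202, 267 and 241 CPM in WT mice and at 16.7, 33.4 and 24.3 CPM in Lipa-/- mice. The log2 fold change was -3.25 ± 0.23 (SE, adjusted p = 3.8e-08, edgeR's quasi-likelihood test), and no Lipa-/- mouse reached the lowest WT mouse. The libraries held 20150661 to 25833134 reads assigned to genes. A count of 3 reads, the floor used here for counting error only, corresponded to 0.144 to 0.161 CPM in a WT mouse and 0.106 to 0.121 CPM in a Lipa-/- mouse. The Mup genes, which encode the major urinary proteins, took 9.219% to 16.33% of the reads of WT mice and 0.04996% to 0.216% of those of Lipa-/- mice. The TMM factors of both groups did not overlap either (0.8091 to 0.924 and 1.165 to 1.229), and 4254 genes were called with the Mup genes left out of the scaling, against 4256 with them. Over all tested genes the median log2 fold change was 0.02, or 0.48 when total counts replaced TMM, and the called genes were higher in 69.0% or 87.2% of cases. Changes are given relative to the bulk of genes. Lipa-/- mouse 5 carried another label code than the other 5 mice. Lipa-/- mouse 9 stood apart within its group at several lists, as described with them. Alb, the albumin gene that defines hepatocytes, stood at 18409 to 49064 CPM in all 6 mice, as the liver label requires.

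Of the 14535 genes, 2938 were called higher and 1318 lower in Lipa-/- mice, where a call means a log2 fold change beyond 1 with an adjusted p under 0.05 in edgeR. These were 20.2% and 9.07% of the genes tested, together 29.3%. No overlap between the groups of 3 was seen at 52.7% of all tested genes. Genes called higher were low in WT mice, with a median of 0.853 CPM and a median log2 fold change of 2.66. Genes called lower had a median of 41.4 CPM in WT mice and a median log2 fold change of -1.51. Beyond 16-fold, 722 genes were called higher and 112 lower. With genes of at most 3 reads in a group set to the bound that 3 reads allow, these were 627 and 105. The mice were separate animals, and the p values measure the spread between them. With 3 mice against 3, an exact permutation test on a single gene could not go below p = 0.1.

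**Figure D1:**
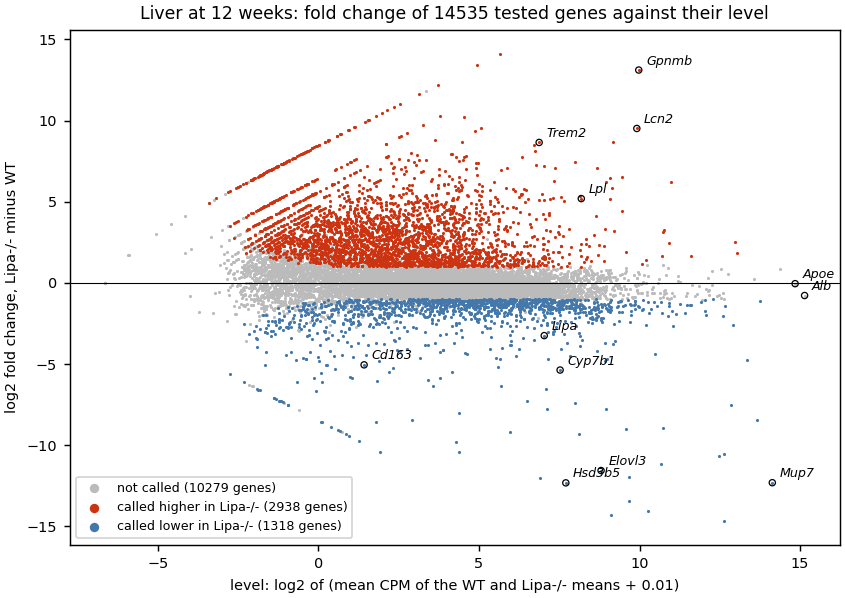
Log2 fold change of each tested gene (Lipa-/- minus WT, vertical axis) against its level (log2 of the mean CPM of both groups plus 0.01, horizontal axis), with 2938 genes called higher in red, 1318 called lower in blue and the rest in grey. The straight bands at the left are genes with no or few reads in 1 group, whose fitted fold change depends on a prior count and is no measured size. Gpnmb, Lcn2 and Trem2 lie far above 0, Mup7, Hsd3b5 and Elovl3 far below, and Alb and Apoe near 0 at the right.

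The genes were described in 57 lists written from known functions, but with earlier results of these data known. Their shares therefore describe the lists and test nothing. The shares of tested members that were called are to be read against 20.2% for higher and 9.07% for lower. Listed genes that were not among those tested do not enter these shares. Some members had at most 3 reads over a group and passed the read filter only through other groups. This could favour a call in advance and limits how such shares are read. There were 8 among neutrophil genes and 3 each among chemokines, T and NK cell genes and Mup genes. Cytokines, metalloproteinases, bile duct markers and female-biased genes held 2 each, and no other list more than 1.

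**Figure D2:**
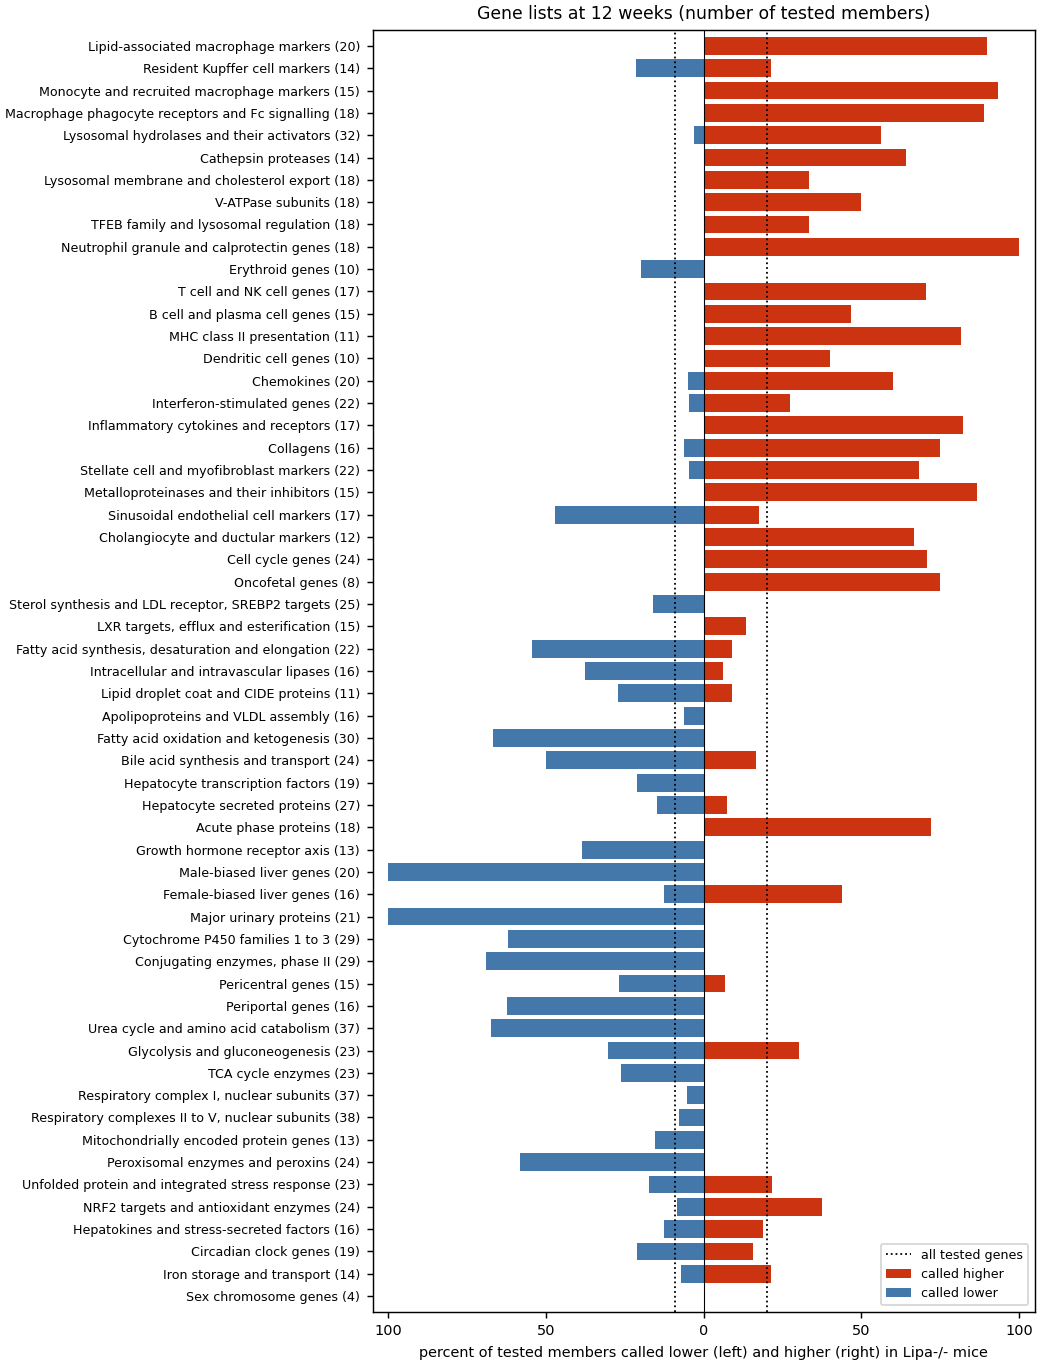
Percent of the tested members of each list that were called higher (red, to the right) or lower (blue, to the left) in Lipa-/- mice, with the number of tested members in brackets. The dotted lines mark the shares over all tested genes, 20.2% and 9.07%. All 18 neutrophil genes were called higher, and all 21 Mup genes and all 20 male-biased genes were called lower. Of the neutrophil genes, 8 had at most 3 reads over the WT group and passed the read filter only through other groups.

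Genes of lipid-laden and recruited macrophages rose, whereas those of resident Kupffer cells were called in both directions. Of 20 markers of lipid-associated macrophages, 18 were called higher, with a median log2 fold change of 5.17, and Plin2 and Apoe were not called. Gpnmb, a glycoprotein of lipid-laden macrophages (chromosome 6, 49013426 to 49047863), was at 0.161, 0.239 and 0.262 CPM in WT mice and at 1343, 1992 and 2701 CPM in Lipa-/- mice. Trem2, a lipid receptor of macrophages (chromosome 17, 48653429 to 48661175), was at 0.911, 0.766 and 0.0523 CPM in WT mice and at 219, 237 and 247 CPM in Lipa-/- mice. The 3 Lipa-/- mice were thus close to each other at Trem2, and spread by 2.01-fold at Gpnmb. Lgals3, which encodes galectin-3, differed by 8.70 ± 0.39 on the log2 scale (SE, adjusted p = 1.11e-09 in edgeR). In bulk liver, more cells of a type and more RNA per cell cannot be told apart, and this holds for every cell type below.

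Of 14 Kupffer cell markers, 3 were called higher and 3 lower, at a median log2 fold change of -0.33, or 0.14 with scaling by total counts. Either count was 21.4% of the list, which for higher is about the 20.2% of all tested genes. For lower it is above their 9.07%. Timd4, which encodes a receptor for dying cells, fell from 2.63, 5.17 and 2.56 CPM to 0.426, 0.388 and 0 CPM. Cd163, the scavenger receptor for haemoglobin, fell from 4.98, 6.08 and 4.55 CPM to 0.177, 0.233 and 0.0404 CPM. Both genes separated the groups, as did 52.7% of all tested genes. Clec4f, the lectin that defines Kupffer cells, was at 78.5, 114 and 45.4 CPM in WT mice and at 42.4, 39.8 and 1.33 CPM in Lipa-/- mice, and was not called although the groups did not overlap (adjusted p = 0.263 in edgeR). Marco, a scavenger receptor, was at 46.6 and 64.4 CPM in Lipa-/- mice 5 and 8 but at 1.29 CPM in mouse 9, which lay within the range of WT mice (0.995 to 2.63 CPM), and its call held in 2 of the 6 fits with 1 mouse left out. Spic, the transcription factor of iron-recycling macrophages, was likewise at 6.03 and 6.02 CPM in mice 5 and 8 and at 1.33 CPM in mouse 9, all above WT mice (at most 0.628 CPM). In its mean log2 level the list was lower than in WT mice by 1.25 in mouse 9, and within 0.19 of the WT mean in the other 2 Lipa-/- mice. Only 1 member was called higher when Lipa-/- mouse 8, WT mouse 1 or WT mouse 3 was left out.

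Of 15 genes of monocytes and recruited macrophages, 14 were called higher, with a median of 5.25. Ccr2, the chemokine receptor by which monocytes leave the marrow, was at 0.262 to 0.67 CPM in WT mice and at 9.23, 8.74 and 30.8 CPM in Lipa-/- mice. Ly6c2, which marks inflammatory monocytes, was at 3.37, 7.18 and 64.3 CPM in Lipa-/- mice against at most 0.697 CPM. Mouse 9 was the highest of the group at both. Of 18 phagocyte receptors and components of Fc signalling, 16 were called higher and none lower (median 4.32). Among these, Clec7a, the receptor of fungal glucans, was at 90.6, 219 and 104 CPM against 0.838 to 4.45 CPM in WT mice, and Cd300lf, a lipid-binding inhibitory receptor, differed by 5.55. Mertk, a receptor for dying cells, rose less (1.69 ± 0.44, SE, adjusted p = 0.00545 in edgeR) and was at 46.6, 36.9 and 12.9 CPM in Lipa-/- mice against 9.42 to 10.7 CPM.

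**Figure D3:**
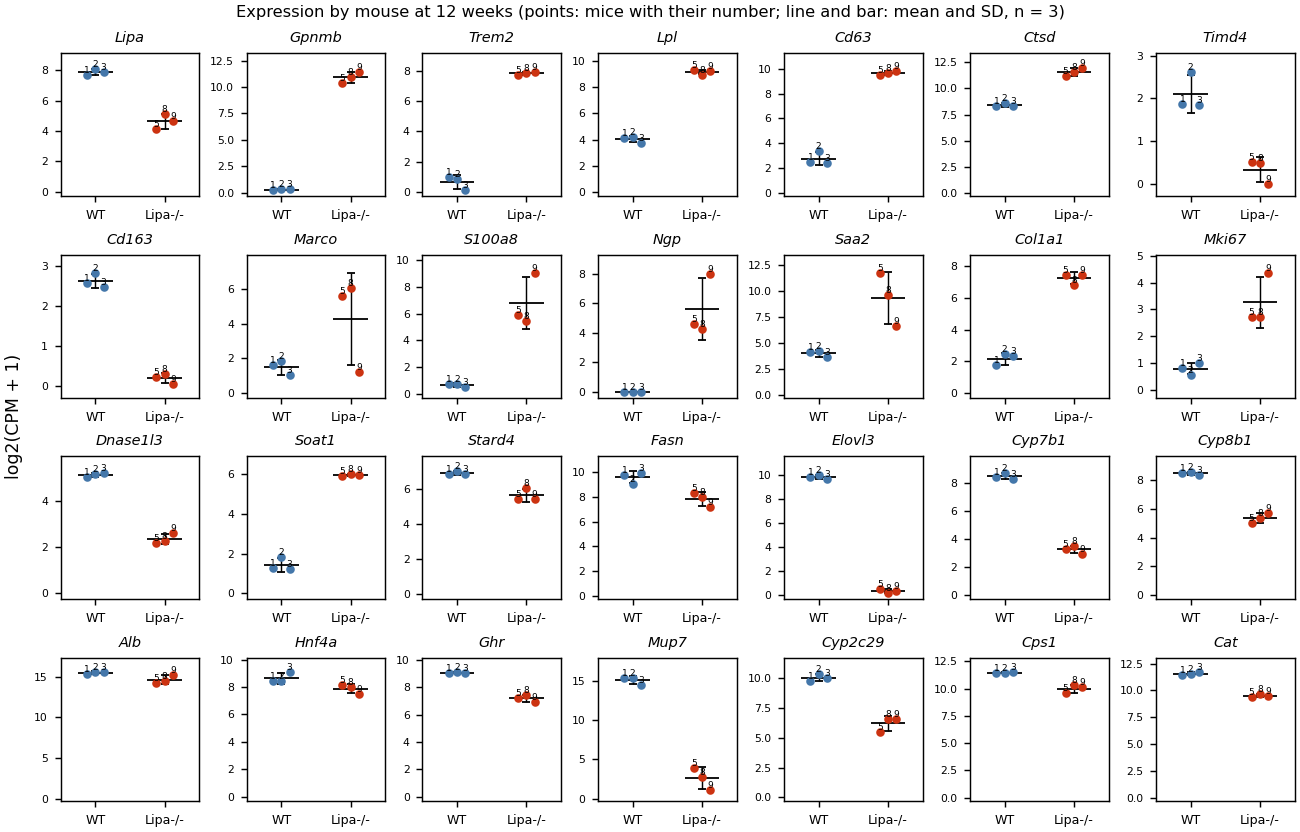
Expression of 28 genes in each mouse at 12 weeks, on the scale log2(CPM + 1), with WT mice in blue and Lipa-/- mice in red, the mouse number at each point, and the mean and SD of 3 mice in black. Gpnmb, Trem2, Cd63 and Soat1 separate the groups widely, Marco and Timd4 show mouse 9 as the lowest Lipa-/- mouse, and S100a8, Ngp and Mki67 show it as the highest. Alb lies below WT mice in every Lipa-/- mouse by a narrow gap (38576 against 39575 CPM) and was not called.

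Genes of lysosomal enzymes were higher in Lipa-/- mice. Of 32 lysosomal hydrolases and activators, 18 were called higher, with a median of 1.17, and Lipa was the single member called lower. Hexa, the alpha subunit of beta-hexosaminidase, which trims gangliosides, rose by 3.12 ± 0.23 on the log2 scale (SE). Psap, the precursor of the saposins that present lipids to these enzymes, rose from 286, 312 and 392 CPM to 2589, 3314 and 3576 CPM. Of 14 cathepsins, which are the proteases of the lysosome and of immune granules, 9 were called higher (median 2.26). Ctsd was at 315, 390 and 321 CPM in WT mice and at 2254, 3044 and 3890 CPM in Lipa-/- mice, and Ctsb at 567 to 658 and 2516 to 4076 CPM. Ctsk, the collagen-degrading cathepsin of osteoclasts, was at 0.523 to 0.909 CPM in WT mice and at 88.8, 112 and 288 CPM in Lipa-/- mice.

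Of 18 proteins of the lysosomal membrane and of cholesterol export from it, 6 were called higher and none lower (median 0.43). Cd63, a tetraspanin, rose from 4.45, 9.47 and 4.4 CPM to 717, 823 and 921 CPM, and Laptm5, a membrane protein of leukocyte lysosomes, by 4.37. Npc2, which carries free cholesterol within the lysosome, rose by 2.19 ± 0.29 (SE, adjusted p = 1.99e-05 in edgeR), whereas Npc1, its partner in the membrane, differed by 0.62 ± 0.28 and was not called (adjusted p = 0.0873 in edgeR), though it was with offsets for transcript length (1.01, adjusted p = 0.00236 in edgeR). Of 18 subunits of the V-ATPase, the proton pump that acidifies lysosomes, 9 were called higher (median 1.02), and 14 with scaling by total counts. Among these were Atp6v0d2, the d subunit of macrophages and osteoclasts, at 135, 141 and 72.9 CPM against at most 1.15 CPM, and Tcirg1, a subunit of the same cells, at 129 to 185 against 28.4 to 32.2 CPM. Atp6v0d1, the d subunit present in all cells, differed by 0.47 ± 0.21 (SE, adjusted p = 0.0902 in edgeR). Of 18 members of the TFEB family and its regulators, 6 were called higher (median 0.53). Tfeb stood at 24.2, 17.8 and 14.4 CPM against 6.12 to 7.43 CPM, Tfec at 6.07 to 7.48 against 0.942 to 1.93 CPM, and Rragd, a Rag GTPase that couples amino acids to TFEB, at 29.8 to 40.1 against 0.589 to 1.39 CPM. Tfe3 differed by 0.69 ± 0.26 and was not called.

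The motif CACGTG, read on both strands, lay in 21 of the 99 promoters of the lysosome lists (21.2%), where a promoter means the 250 bases before and 50 bases after the annotated start. It lay in 9.5% of the promoters of tested genes and in 7.82% of all 21751 promoters. The hepatocyte lists held it in 6.52% and the male-biased list in 5.0%. The shares were 16.2%, 9.45% and 12.0% in the lysosome lists, the tested genes and all promoters for CATGTG, another E-box, and 25% and 10.9% in the male-biased and hepatocyte lists. For TTCNNNGAA, the STAT5 motif, they were 15% in the male-biased list, 13% in the hepatocyte lists, 11.1% in the lysosome lists, 7.69% in the tested genes and 8.81% in all promoters. For CAAAGTCCA, a pattern of HNF4A, they were 0.0% in both the hepatocyte and the male-biased lists, 2.02% in the lysosome lists, 0.495% in the tested genes and 0.451% in all promoters. A match shows the letters, not binding. The last 100 bases before the start of 3 lysosomal genes are shown 5′ to 3′ on the strand of the gene, with the motif in capitals, because these genes rose and hold the motif close to the start. Gla and Glb1, which encode alpha- and beta-galactosidase, were picked for this after their values were seen.
Ctsd, chr7:141941776-141941875, minus strand: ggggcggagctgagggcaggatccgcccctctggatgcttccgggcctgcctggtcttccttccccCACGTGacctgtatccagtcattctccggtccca
Gla, chrX:133501905-133502004, minus strand: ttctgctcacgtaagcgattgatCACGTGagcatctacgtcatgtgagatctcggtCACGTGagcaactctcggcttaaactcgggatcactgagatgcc
Glb1, chr9:114230044-114230143, plus strand: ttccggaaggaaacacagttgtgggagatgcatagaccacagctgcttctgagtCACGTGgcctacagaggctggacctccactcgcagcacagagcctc
The motif began 34, 44 and 46 bases before the start of Ctsd, Gla and Glb1, and Gla held 2 matches. Gla was at 4.4 to 7.51 CPM in WT mice and at 34.4, 50.6 and 73.4 CPM in Lipa-/- mice, and Glb1 at 7.93 to 11.1 and 23.3 to 36.5 CPM. Of the 3 genes, Ctsd and Gla rose more (3.16 and 3.03) than Glb1 (1.59), a difference that was not tested.

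Genes of neutrophil granules had few or no reads in WT mice and rose in Lipa-/- mice. All 18 were called higher, with a median of 9.05, or 8.00 with genes of at most 3 WT reads at their bound. With DESeq2, 16 were called. Of the 18 genes, 8 had at most 3 reads over the WT group and so passed the read filter only through other groups. This favoured a call of higher in advance, so the share of this list is not read against 20.2%. Ngp, a granule protein of immature neutrophils, had 0 reads in WT mice and stood at 23.4, 18 and 259 CPM in Lipa-/- mice, at least 1869-fold higher than 3 reads over the WT group. Mpo, myeloperoxidase, had 0 reads in WT mice too, and 8.59, 3.38 and 67.2 CPM in Lipa-/- mice (at least 495-fold higher). S100a8 and S100a9, the chains of calprotectin, were at 59.9, 42.8 and 520 CPM and at 60.3, 46.1 and 542 CPM, against at most 1.44 CPM in WT mice. Mouse 9 was the highest at each of these 4 genes. Without it, 12 of the 18 genes were called and the median was 7.07, and Elane, the elastase of neutrophils, was no longer called (5.10, adjusted p = 0.0563 in edgeR, against 7.85 with all mice).

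Genes of lymphocytes and of antigen presentation were also higher. Of 17 genes of T and NK cells, 12 were called higher (median 2.25), and 7 without WT mouse 3. In this list 3 members had at most 3 reads over a group. Ccl5, a chemokine of T and NK cells, was at 4.65, 9.24 and 4.93 CPM against 0.262 to 0.909 CPM, while Cd3d was at 0.674 to 1.71 CPM against 0.105 to 0.622 CPM and was not called (adjusted p = 0.154 in edgeR). Of 15 genes of B and plasma cells, 7 were called higher (median 0.70). Igha, the heavy chain of IgA, was at 129, 253 and 120 CPM against 1.34 to 4.21 CPM, and Ighg2b at 13.1, 50 and 15.4 CPM against at most 0.67 CPM. Of 11 genes of MHC class II presentation, 9 were called higher (median 2.24). Cd74, the invariant chain, was at 363, 524 and 158 CPM against 33.7 to 72.2 CPM, and Ctss, the cathepsin that trims it, at 931 to 1411 against 12.7 to 28 CPM. Of 10 dendritic cell genes, 4 were called higher (median 1.38), among them Batf3 (2.12). Xcr1 and Clec9a, which mark the cells that cross-present antigen, differed by 1.13 and 0.81 and were not called. Of 10 erythroid genes none was called higher and 2 were called lower, at a median of -0.01 that was 0.48 when scaled by total counts, 0.52 without WT mouse 1 and -0.46 without WT mouse 3. Alas2, the first enzyme of haem synthesis in erythroid cells, fell from 146 to 155 CPM to 13.6, 17.2 and 12.2 CPM, whereas Hba-a1, which encodes alpha-globin, was at 15.8 to 67.4 CPM in WT mice and 35.7 to 53.5 CPM in Lipa-/- mice. Alas2 thus separated the groups and Hba-a1 did not.

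Of 20 chemokines, 12 were called higher and 1 lower (median 3.39), and 3 members had at most 3 reads over a group. Ccl3, which attracts monocytes and neutrophils, had 3 reads over the WT group and stood at 6.75 to 8.09 CPM in Lipa-/- mice, a ratio of 147 with a 95% counting interval of 49.9 to 713. Ccl2, the ligand of Ccr2, was at 8.87, 13 and 35.5 CPM against 0.643 to 4.5 CPM. Cxcl13, which attracts B cells, was called lower (-3.04 ± 1.05, SE, adjusted p = 0.0291 in edgeR), at 0.071, 0.35 and 0.323 CPM against 1.29, 3.78 and 1.05 CPM, a call that held in 2 of the 6 fits with 1 mouse left out. Of 17 cytokines and receptors, 14 were called higher and none lower (median 3.34), and 2 members had at most 3 reads over a group. Tnf was at 6.46, 6.72 and 5.09 CPM against 0.144 to 0.161 CPM, and Il1rn, the antagonist of interleukin-1, at 37.6 to 47.2 against 0.574 to 0.838 CPM. Il1b itself was at 3.66 to 4.58 CPM in Lipa-/- mice, within the range of WT mice (1.47 to 8.47 CPM). Of 22 interferon-stimulated genes, 6 were called higher and 1 lower (median 0.25). Of the called genes, Oas3 and Oas1a, which make the activator of RNase L, rose by 2.79 and 2.49. Isg15 and Ifit1 differed by 0.36 and -0.59 and were not called. The 27.3% of this list called higher lay near the 20.2% of all genes.

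Genes of the scar matrix were higher. Of 16 collagens, 12 were called higher and 1 lower (median 2.16). Col1a1 rose from 2.36, 4.45 and 4.03 CPM to 177, 113 and 175 CPM and Col1a2 from 3.43, 8.52 and 7.85 CPM to 208, 157 and 319 CPM. Col27a1, a collagen of cartilage, fell from 20.3 to 48.7 CPM to 12.4, 4.04 and 1.45 CPM. Of 22 markers of stellate cells and myofibroblasts, 15 were called higher and 1 lower (median 1.99). Vim, which encodes vimentin, rose by 5.37, Timp1 by 7.59 and Des, the desmin gene of stellate cells, by 1.20, while Lrat, the enzyme by which quiescent stellate cells store vitamin A, fell from 11.2 to 14 CPM to 2.31, 4.78 and 3.96 CPM. Acta2, smooth muscle actin, was at 4.22, 6.56 and 12.4 CPM against 1.82 to 6.65 CPM and was not called (adjusted p = 0.262 in edgeR). Of 15 metalloproteinases and inhibitors, 13 were called higher, with a median of 4.55, or 4.33 with genes at their bound. Mmp12, the elastase of macrophages, was at 189, 210 and 249 CPM against 1.15 to 1.61 CPM, Mmp2 at 20.2, 26.6 and 54.7 CPM against 0.857 to 1.83 CPM, and Adam8 at 32.4 to 57.1 against at most 0.157 CPM. The groups did not overlap at any of these 3 genes, as at 52.7% of all tested genes. The naming rule asked for this of called members beyond the leading 2 of a list.

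Of 17 markers of sinusoidal endothelial cells, 8 were called lower (47.1%, against 9.07% of all tested genes), at a median of -0.84 that was -1.27 without Lipa-/- mouse 9. The 3 called higher, or 1 without WT mouse 1, were 17.6%, below the 20.2% of all tested genes. Scaling by total counts left 5 lower, at a median of -0.34. Dnase1l3, a DNase of these cells, fell from 32.2, 35.9 and 36.4 CPM to 3.58, 3.77 and 5.05 CPM, and Ehd3 from 46.5 to 56 CPM to 9.86 to 11.9 CPM. Vwf, the von Willebrand factor of larger vessels, was at 9.62 to 12.2 CPM against 2.68 to 4.76 CPM. Stab2, the hyaluronan receptor, overlapped between the groups at 12.4 to 30.8 CPM and 19.9 to 22 CPM. Of 12 markers of bile duct cells, 8 were called higher (median 1.87), or 5 without WT mouse 1 and 6 without Lipa-/- mouse 9. Their summed level was 475, 635 and 2262 CPM in Lipa-/- mice, where most of it was Spp1 and mouse 9 was the highest, against 40.9 to 68.2 CPM in WT mice. Spp1, which encodes osteopontin and is also a macrophage gene, was at 397, 583 and 2206 CPM against 20.1 to 40 CPM, and Prom1, which marks progenitor-like duct cells, at 2.63 to 7.19 against 0.643 to 1.26 CPM. Krt19, the keratin that defines bile ducts, overlapped (1.45 to 1.86 CPM and 0.429 to 2.11 CPM).

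Of 24 cell cycle genes, 17 were called higher (median 3.44), and this count rested on Lipa-/- mouse 9: without it 10 were called, with a median of 1.98. Mki67, the proliferation marker, was at 5.54, 5.63 and 19.6 CPM against 0.478 to 0.995 CPM. Top2a was at 4.44, 5.20 and 28 CPM and Birc5 at 2.38, 3.57 and 16.7 CPM, both against at most 0.942 CPM in WT mice. Mouse 9 was the highest at all 3, and the other 2 Lipa-/- mice were also above every WT mouse. Of 8 oncofetal genes, 6 were called higher (median 3.70). H19, Igf2bp3, Dlk1 and Lin28b were listed too but were not among the genes tested. Anxa2 was at 130, 191 and 408 CPM against 8.52 to 15 CPM and Ly6d at 11.7, 37.7 and 77.9 CPM against at most 1.36 CPM. Afp, alpha-fetoprotein, was at 2.24, 2.76 and 7.88 CPM against 0.995 to 1.55 CPM and was not called without mouse 9 (0.91, adjusted p = 0.116 in edgeR, against 1.69).

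**Figure D4:**
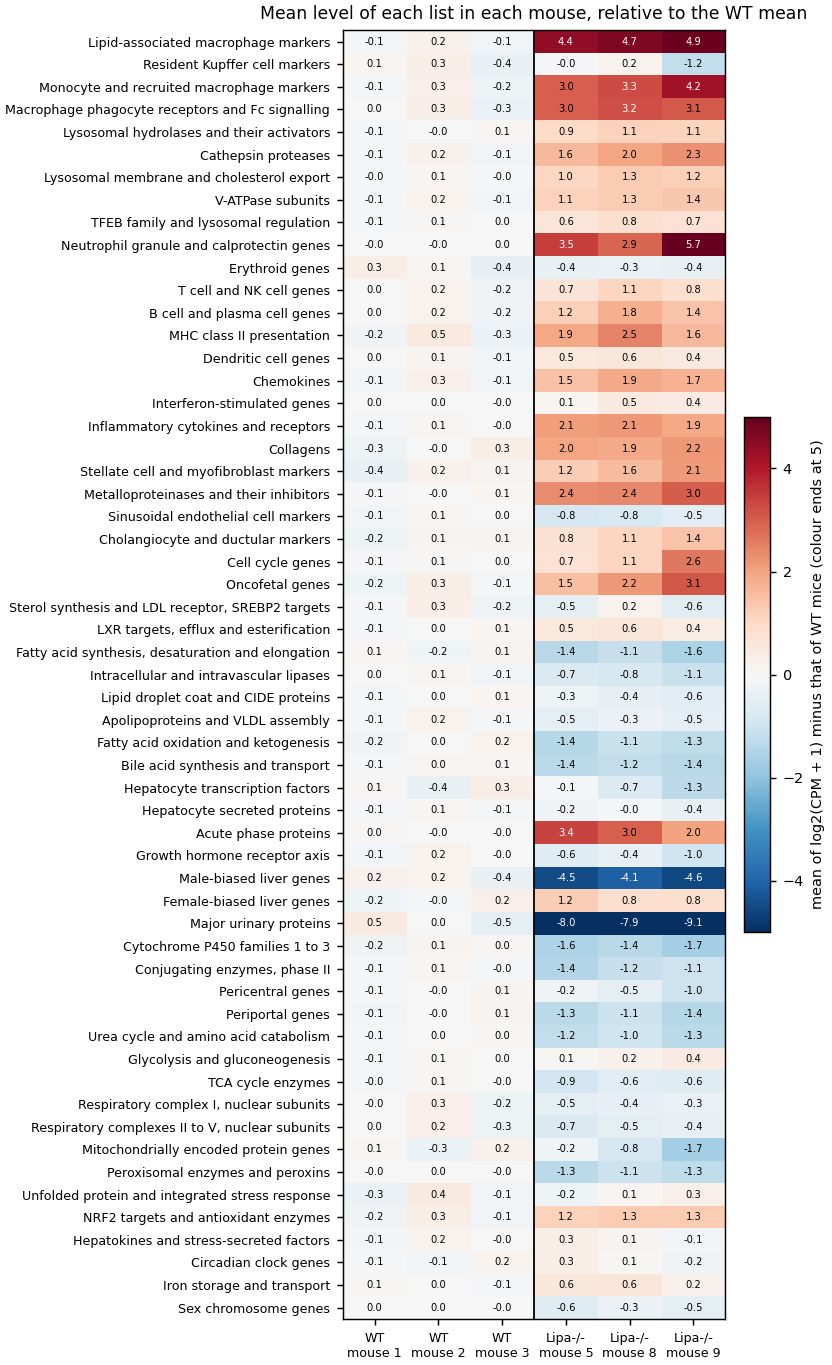
Mean log2(CPM + 1) of the tested members of each list in each mouse (columns), minus the mean over the 3 WT mice, with red above and blue below the WT mean and the value written in each cell. Lipa-/- mouse 9 is the highest of its group for neutrophil, cell cycle and oncofetal genes and the lowest for Kupffer cell, hepatocyte transcription factor and mitochondrially encoded genes, and Lipa-/- mouse 5 is the highest for acute phase proteins.

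Genes of fatty acid synthesis fell, whereas few genes of sterol synthesis passed the test. Of 25 targets of SREBP2, the regulator of sterol synthesis and of the LDL receptor, none was called higher and 4 were called lower, at a median of -0.20 that turned to 0.28 with scaling by total counts and to 0.09 without WT mouse 2. Stard4, a carrier of free sterol, fell from 113 to 129 CPM to 41, 64.8 and 42 CPM. The number lower was 2 without Lipa-/- mouse 5, 1 without WT mouse 2 and 0 when scaled by total counts. Of 15 LXR targets and genes of cholesterol efflux and esterification, 2 were called higher (13.3%, below the 20.2% of all tested genes). The median was 0.03, and it was -0.11 without Lipa-/- mouse 8 and -0.09 without WT mouse 1. Scaled by total counts, 3 were higher, at a median of 0.50. Soat1, which esterifies cholesterol in macrophages (chromosome 1, 156252095 to 156303864), rose from 1.45, 2.63 and 1.31 CPM to 59.2, 63 and 62.9 CPM, and Abcg1, a cholesterol exporter of macrophages, from 2.41 to 2.77 CPM to 34.4 to 46.4 CPM. Abca1, the other main exporter, was at 73.8 to 97 CPM against 65.2 to 131 CPM.

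Of 22 genes of fatty acid synthesis, desaturation and elongation, 2 were called higher and 12 lower (median -1.52). Me1, malic enzyme, fell from 367 to 426 CPM to 20.8, 35.3 and 35 CPM. Fasn, fatty acid synthase, fell from 889, 522 and 995 CPM to 315, 251 and 146 CPM (-1.76 ± 0.56, SE, adjusted p = 0.019 in edgeR), a call that was lost without Lipa-/- mouse 9 (-1.50, adjusted p = 0.0781 in edgeR) or WT mouse 3 (-1.57, adjusted p = 0.0578 in edgeR), and when scaled by total counts (-1.31, adjusted p = 0.0845 in edgeR). Elovl3, an elongase that is also a male-biased gene, was at 789 to 1005 CPM in WT mice and at 0.426, 0.117 and 0.323 CPM in Lipa-/- mice. The members called higher were Elovl7 (5.01) and Scd2 (4.07), a desaturase used outside the hepatocyte, at 55.2, 97.7 and 66.8 CPM against 3.22 to 5.60 CPM. Of 16 lipases and their regulators, 1 was called higher and 6 lower (median -1.35). Lpl, lipoprotein lipase, which the adult hepatocyte hardly makes, was at 492 to 614 CPM against 12.7 to 17.5 CPM, Ces3a, a carboxylesterase, at 189 to 451 against 1770 to 2270 CPM, and Pnpla2, the main triglyceride lipase of the cytosol, at 41.2 to 79.2 against 29.6 to 49 CPM and not called.

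Of 11 lipid droplet proteins, 1 was called higher, or 0 without Lipa-/- mouse 8, WT mouse 2 or WT mouse 3, and 3 lower (median -0.69). Plin2, the most abundant droplet coat, had the lower level in all Lipa-/- mice (213, 278 and 310 CPM against 472 to 582 CPM) at a log2 fold change of -0.99, just under the threshold, and was called in 3 of the 6 fits with 1 mouse left out. Fitm1, which helps to form droplets, fell by 3.73 on the log2 scale and Plin5 by 1.45. Of 16 apolipoproteins and VLDL assembly genes, none was called higher and 1 lower, at a median of -0.50 that was 0.08 on the TPM values. Without WT mouse 1 the number lower was 3. The one called was Mttp, which loads triglyceride onto apolipoprotein B, at 85.5, 110 and 106 CPM against 252 to 297 CPM. Apob differed by -0.97 ± 0.34, and was called without WT mouse 1 (-1.08) or WT mouse 2 (-1.13). Apoa1 (0.24) and Apoe (-0.05) were not called, and Apoe stood at 23289 to 33023 CPM in Lipa-/- mice and 26911 to 35235 CPM in WT mice.

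Of 30 genes of fatty acid oxidation and ketogenesis, none was called higher and 20 were called lower (median -1.11). The count was 7, with a median of -0.63, when scaled by total counts, with the same sign of the median. Cpt2, the inner carnitine transferase, fell from 103, 125 and 130 CPM to 42.2, 40.9 and 34.9 CPM, and Acot1, a thioesterase, from 24.2 to 27.7 CPM to 0.781 to 2.02 CPM. Cpt1a, the step at which import of fatty acids is controlled, was at 123, 149 and 74.6 CPM against 93.2, 98.5 and 189 CPM and did not separate the groups. Cyp4a14, a target of PPAR-alpha, was at most 0.35 CPM in Lipa-/- mice, and its WT level was set by mouse 3 (3.38, 4.35 and 62.6 CPM). Of 24 peroxisomal genes, none was called higher and 14 were called lower (median -1.05, with 7 lower and a median of -0.58 when scaled by total counts). Cat, catalase, fell from 2779 to 3364 CPM to 670, 812 and 719 CPM, Abcd3, an importer of fatty acids, from 553 to 599 CPM to 84.7 to 121 CPM, and Hacl1, a lyase of alpha-oxidation, by 2.46 on the log2 scale.

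Of 24 genes of bile acid synthesis and transport, 4 were called higher and 12 lower (median -1.07). Cyp7a1, the rate-limiting enzyme of the classical pathway, did not differ beyond the spread, at 39.8, 18.7 and 71.3 CPM against 66.9, 39.1 and 32.1 CPM. Cyp8b1, which directs synthesis to cholic acid, fell from 329 to 387 CPM to 31.5, 40 and 52.1 CPM, and Cyp7b1, of the alternative pathway, from 313 to 419 CPM to 6.87 to 10.3 CPM. Slco1a1, an uptake carrier, fell from 435 to 639 CPM to 0.404 to 1.17 CPM. Of the genes called higher, Slc51b, an export subunit, stood at 4.22 to 5.90 against 1.20 to 1.71 CPM and Slco1a4, another carrier, at 23.6 to 42.2 against 5.84 to 12.2 CPM.

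Of 19 hepatocyte transcription factors, none was called higher and 4 were called lower (median -0.52), of which 2 when scaled by total counts. Onecut1, also named HNF6 (chromosome 9, 74769118 to 74800594), fell from 66.2, 15.5 and 59.5 CPM to 4.68, 1.32 and 0.768 CPM (-4.37 ± 0.72, SE, adjusted p = 0.000147 in edgeR), and Foxa1 from 10 to 30.7 CPM to 4.49 to 9.26 CPM. Hnf4a was at 285, 256 and 178 CPM against 340 to 549 CPM (-0.78 ± 0.31, SE, adjusted p = 0.0543 in edgeR), below WT mice in every mouse but not called. Of 27 secreted proteins of hepatocytes, 2 were called higher and 4 lower (median -0.51), and 2 lower in each fit without 1 mouse other than that without Lipa-/- mouse 8. On the TPM values, 6 were called higher and 1 lower and the median was 0.24. Alb was at 18409, 22453 and 38576 CPM against 39575 to 49064 CPM (-0.78 ± 0.40, SE, adjusted p = 0.133 in edgeR). Serpina1c, an alpha-1 antitrypsin gene, fell by 2.03 on the log2 scale, and Hpx, which binds haem, rose by 1.86 from 2601 to 4520 CPM to 11166 to 15348 CPM. Trf, the transferrin gene, was at 27220 to 27400 CPM against 13954 to 17317 CPM, a log2 fold change of 0.85 ± 0.29 that was not called, against 1.44 (adjusted p = 0.00223 in edgeR) with offsets for transcript length. In TPM the same gene went from 10217 to 13437 to 41543 to 56290, and the deposited mean effective transcript length of Trf, by which TPM is divided, from 955 to 1153 bases in WT mice to 541 to 831 bases in Lipa-/- mice. The lengths of Hpx and Hp did not shift this way (1235 to 1276 and 1236 to 1269 bases for Hpx, 1080 to 1121 and 1082 to 1116 bases for Hp).

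Of 18 acute phase proteins, 13 were called higher and none lower (median 2.61). Lcn2, which binds bacterial siderophores (chromosome 2, 32274645 to 32278264), was at 2878, 1801 and 1106 CPM against 1.63 to 4.03 CPM. Saa2, serum amyloid A, was at 3272, 763 and 100 CPM against 11.2 to 18 CPM, and Hp, haptoglobin, at 16994, 13398 and 10442 CPM against 1996 to 2976 CPM. At each of these 3 genes mouse 5 was the highest and mouse 9 the lowest of the Lipa-/- group, and all 3 mice were above every WT mouse.

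The Mup genes and all listed male-biased genes fell. Of 21 tested Mup genes all 21 were called lower, with a median of -10.40, or -10.10 with genes at their bound. Mup7 (chromosome 4, 60066445 to 60070490) was at 43072, 41367 and 23311 CPM in WT mice and at 14.2, 5.75 and 1.21 CPM in Lipa-/- mice, and Mup20, also called darcin, at 25061, 24184 and 10675 CPM and at 361, 1522 and 372 CPM. The Mup genes are near copies of each other, so that the split of reads between single members is uncertain, and this holds as well for members of the Cyp, Ces, Ugt, Serpina and Saa families named here. The sum over the list was 99780 to 186101 CPM in WT mice and 407 to 1855 CPM in Lipa-/- mice. Of 20 male-biased genes, all 20 were called lower (median -4.70), with no overlap between the groups at any. Hsd3b5, a steroid dehydrogenase of the male liver, was at 429, 487 and 334 CPM against 0.142, 0 and 0.0808 CPM. Of 16 female-biased genes, 7 were called higher and 2 lower (median 1.82). The list held 21 genes, and Cyp2b13, Cyp3a41a, Cyp3a44, Cyp3a16 and Sult2a1 were not among the genes tested. Abcd2, a peroxisomal transporter, rose from 0.589 to 1.88 CPM to 19.9 to 29.1 CPM. Cyp2b10 and Cyp2c69 were the 2 called lower (-4.84 and -2.13), the latter in 3 of the 6 fits with 1 mouse left out (the number lower was 1 in the others). Of 13 genes of the growth hormone axis, none was called higher and 5 lower, at a median of -0.45 that was 0.02 when scaled by total counts, and 3 were lower without Lipa-/- mouse 9. Ghr, the growth hormone receptor, fell from 529 to 551 CPM to 150, 172 and 121 CPM (-1.87 ± 0.24, SE, adjusted p = 1.13e-05 in edgeR). Igf1, its main hepatic target, was at 596, 435 and 234 CPM against 549 to 607 CPM and was not called (adjusted p = 0.215 in edgeR). Serpina3k, a serine protease inhibitor, fell from 11030 to 15399 CPM to 1351 to 2796 CPM.

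Of 29 cytochrome P450 genes of families 1 to 3, none was called higher and 18 were called lower (median -1.48). Cyp3a59, a member of family 3 outside this list, was called higher, at a log2 fold change of 1.17 to 1.95 over the alternative settings. Cyp2c29 fell from 880, 1354 and 1025 CPM to 43.2, 94.6 and 97.1 CPM, Cyp1a2 from 593 to 708 CPM to 171 to 213 CPM, and Cyp2e1, the enzyme that oxidises ethanol, from 3679 to 5113 CPM to 2135, 2250 and 887 CPM. Of 29 conjugating enzymes, none was called higher and 20 were called lower (median -1.43, 11 lower and a median of -0.95 when scaled by total counts). Ugt2b1, a glucuronosyltransferase, fell from 653 to 878 CPM to 42.2, 60.4 and 23.9 CPM, and Ugt1a6a by 1.45 on the log2 scale. No named member of either list overlapped between the groups, as at 52.7% of all tested genes. The naming rule asked for this of called members beyond the leading 2 of each list, so it is no result about these genes.

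Among zonated genes, those of the periportal zone fell. Of 16 periportal genes 10 were called lower and none higher (median -1.27), or 6 lower when scaled by total counts. Of 15 pericentral genes 4 were lower and 1 higher, with a median of -0.46 that was 0.02 when scaled by total counts, and 0 were higher without Lipa-/- mouse 9, WT mouse 1 or WT mouse 2. Cyp2f2, a periportal P450, fell from 999 to 1295 CPM to 99, 130 and 55.6 CPM and Hal, histidase, from 361 to 512 CPM to 56.7 to 77.1 CPM. Aldh1a1, a pericentral retinal dehydrogenase, fell from 1243 to 1522 CPM to 271, 343 and 418 CPM. Glul, glutamine synthetase of the last pericentral cell layer, was at 586, 500 and 141 CPM against 864 to 1015 CPM, below WT in all mice yet not called (adjusted p = 0.0644 in edgeR), and was called without Lipa-/- mouse 5 (-1.54). Of 37 genes of the urea cycle and amino acid catabolism, none was called higher and 25 were called lower (median -1.18, 15 lower when scaled by total counts). Cps1, the first enzyme of the urea cycle, fell from 2747 to 2979 CPM to 761, 1263 and 1101 CPM, Otc, the next, from 538 to 601 CPM to 170 to 216 CPM, and Tdo2, which opens the tryptophan ring, from 1380 to 1441 CPM to 200 to 297 CPM.

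Of 23 genes of glycolysis and gluconeogenesis, 7 were called higher and 7 lower, at a median of -0.17 that was 0.29 when scaled by total counts. Hk3 and Hk2, hexokinases of leukocytes and other non-hepatic cells, were at 60.8 to 67.3 against 1.57 to 2.63 CPM and at 15.4, 9.32 and 7.07 CPM against 0.239 to 0.643 CPM. G6pc, which releases free glucose, and Pklr, the pyruvate kinase of the hepatocyte, fell from 409, 1242 and 626 CPM to 75.6, 101 and 255 CPM and from 327 to 498 CPM to 105 to 137 CPM. Of 23 genes of the TCA cycle, none was called higher and 6 were called lower (median -0.74), of which 1 when scaled by total counts. Sucla2 and Sdha were the 2 furthest down, both at -1.46, with Sucla2 at 33.1, 55.5 and 52.9 CPM against 120 to 140 CPM. Cs, citrate synthase, differed by -0.60 and was not called.

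Of 37 nuclear genes of complex I, 2 were called lower, or 1 without Lipa-/- mouse 5, Lipa-/- mouse 8, WT mouse 1 or WT mouse 2, with a median of -0.40 that was 0.08 when scaled by total counts. Ndufs1, its largest subunit, fell from 99 to 118 CPM to 36, 50.2 and 54.4 CPM (-1.20), and was not called with offsets for transcript length (-0.82). Of 38 nuclear genes of complexes II to V, 3 were called lower (median -0.51), or 1 without Lipa-/- mouse 5 and 6 without Lipa-/- mouse 9. Scaled by total counts, 1 was lower and 1 higher, at a median of -0.03. The shares called lower in the main fit, 5.41% for complex I and 7.89% for complexes II to V, lay below the 9.07% of all genes. Of 13 mitochondrially encoded genes, 2 were called lower (median -0.82). The count was 8 without Lipa-/- mouse 5 and 0 without Lipa-/- mouse 8, Lipa-/- mouse 9, WT mouse 1 or WT mouse 3. Scaled by total counts, 0 of these genes were lower, at a median of -0.37. Their summed level was 57250 to 77809 CPM in WT mice and 55659, 36910 and 21738 CPM in Lipa-/- mice. mt-Nd2, a complex I subunit, was at 3797, 2361 and 1148 CPM against 3376 to 5298 CPM, so that mouse 5 lay within the range of WT mice and mouse 9 far below it. It was not called with all mice (-0.82) and was called without mouse 5 (-1.30).

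Lists of stress responses, secreted factors, the clock and iron held called members in both directions. Most shares lay near those over all tested genes (20.2% higher, 9.07% lower), and nothing is read from these about the lists. Further off were NRF2 targets called higher (37.5%), and clock genes (21.1%) and unfolded protein and integrated stress response genes (17.4%) called lower. These counts depended on the scaling. With total counts, 13 NRF2 targets were higher, and 0 clock genes and 2 unfolded protein and stress response genes were lower. Of 23 genes of the unfolded protein and integrated stress responses, 5 were called higher (21.7%) and 4 lower (17.4%), at a median of -0.45 that was 0.02 when scaled by total counts, and 2 were lower without Lipa-/- mouse 5. Phgdh and Psat1, enzymes of serine synthesis, rose by 5.23 and 4.06, most in mouse 9 (10.2 and 14.7 CPM, against 1.45 to 2.68 CPM in mice 5 and 8 and at most 0.697 CPM in WT mice). Creb3l3, an ER-bound factor of the liver, fell from 253 to 278 CPM to 80.8 to 98.4 CPM. Of 24 NRF2 targets and antioxidant enzymes, 9 were called higher (37.5%) and 2 lower (8.33%), or 0 lower without Lipa-/- mouse 5 (median 0.59). Mt2, a metallothionein, was at 831, 556 and 147 CPM against 0.482, 7.42 and 0.89 CPM, and Gpx3, the secreted glutathione peroxidase, at 250 to 423 against 1.34 to 3.45 CPM. Of 16 hepatokines, 3 were called higher (18.8%) and 2 lower (12.5%), or 1 lower without Lipa-/- mouse 8 or 9 (median -0.03, and 0.47 when scaled by total counts). Gdf15, a stress hormone, was at 95.8, 47.9 and 28.6 CPM against 8.84 to 12.6 CPM, and Fgf21 at 2.75 to 8.23 against 1.47 to 6.94 CPM without a call. Of 19 clock genes, 3 were called higher (15.8%) and 4 lower (21.1%), at a median of -0.31 that was 0.13 when scaled by total counts and 0.04 without WT mouse 3. The number lower was 8 without Lipa-/- mouse 5, 1 without mouse 8, 2 without mouse 9 and 2 without WT mouse 3. Bhlhe41, a repressor of the clock, rose from 0.574 to 1.71 CPM to 24.4 to 41.3 CPM, and Clock fell from 25.6 to 47.3 CPM to 11.8 to 19 CPM. Of 14 genes of iron storage and transport, 3 were called higher (21.4%), or 5 without WT mouse 1, and 1 lower (7.14%, median 0.42). Ftl1, the ferritin light chain, was at 7219 to 8064 against 3321 to 5559 CPM, a log2 fold change of 0.85 that was not called, but was called without WT mouse 2 (1.11). Tfrc, the transferrin receptor, was at 30.9 to 41 against 27 to 33.1 CPM. None of the 4 genes of the Y chromosome was called, though all 4 were below every WT mouse in each Lipa-/- mouse. Their median was -0.47, or -0.00 when scaled by total counts. Xist was listed with them but was not among the genes tested.

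The spread between mice was described in both groups. Over the 12479 genes that averaged 1 CPM or more, the median SD of log2(CPM + 1) was 0.225 between WT mice and 0.272 between Lipa-/- mice, and 59.0% of the genes had the larger SD in Lipa-/- mice. Of 1883 called genes with at least 10 CPM in Lipa-/- mice, 78 varied by more than 4-fold between the highest and the lowest Lipa-/- mouse. Mouse 9 was the highest at 47 of them, mouse 5 at 23 and mouse 8 at 8. The widest were Marco (49.8-fold), Ighg3, an immunoglobulin heavy chain (41.0-fold, with 4.33, 0.854 and 35 CPM), Saa2 (32.7-fold), Elane (31.7-fold) and H2-M2, an MHC class I gene (28.5-fold, with 21.9, 21.5 and 0.768 CPM). At Marco and H2-M2 mouse 9 was the low one, and at Ighg3 and Elane the high one. What set mouse 9 apart was not tested. Without mouse 9, 2640 genes were called higher and 1249 lower, and without mouse 5, 2854 and 1370.

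The difference from WT mice was compared with that of untreated mice at 34-weeks, which had their own 3 WT mice. A test of the change in the difference itself called 9 genes, which were 0.0619% of those tested, and 1379 had an unadjusted p under 0.05. The number called was 2 without Lipa-/- mouse 5 of 34-weeks and 66 without Lipa-/- mouse 6 of 34-weeks. The time points had no mouse in common, and the label codes also differed between them, so that code and time cannot be told apart. Per the study's methods, most untreated Lipa-/- mice did not live to 34-weeks and were killed at set endpoints. The labels do not mark which mice these were, so that late disease and time cannot be told apart either. Selenbp2, a male-biased selenium-binding protein, changed most among the genes more negative at 12-weeks, with a difference of -4.79 at 12-weeks and 0.44 at 34-weeks. WT mice stood at 460 to 1197 CPM at 12-weeks and at 9.54 to 11.8 CPM at 34-weeks. Slc22a27, a solute carrier, was higher in Lipa-/- mice at 12-weeks (3.80) and lower at 34-weeks (-1.33). WT mice stood at 0.322 to 0.89 CPM at 12-weeks and at 8.32 to 14.6 CPM at 34-weeks, and Lipa-/- mice at 5.21 to 9.69 and 3.44 to 5.92 CPM. This gene and Slc22a29, Mmd2, Myc and Cyp3a59 were named after their values were seen. Ces1f, a carboxylesterase, was lower at both (-4.52 and -7.40), and Fgfr1, a growth factor receptor, higher at both (1.55 and 3.90). Cyp3a25 was at 97.8 to 147 CPM in Lipa-/- mice at 12-weeks, not called there (-0.55), and at 46 to 64 CPM at 34-weeks (-2.76). Gpnmb, by contrast, differed by 13.11 and 12.31, Trem2 by 8.65 and 7.85 and Elovl3 by -11.56 and -10.28, none of which was called as a change between the time points. This does not show that they were equal.

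**Figure D5:**
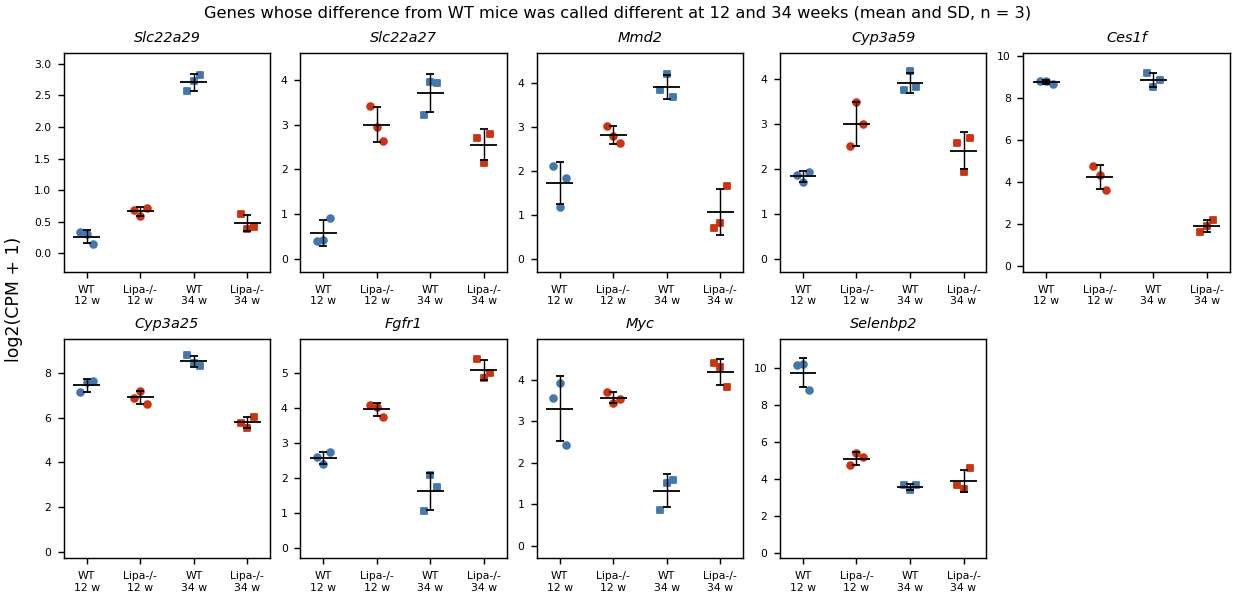
Levels of the 9 genes whose difference between Lipa-/- and WT mice was called different at 12 and 34 weeks, on the scale log2(CPM + 1), with 3 mice per group, WT in blue and Lipa-/- in red, circles for 12 weeks and squares for 34 weeks, and the mean and SD in black. In Selenbp2, Slc22a27 and Slc22a29 the level of WT mice differs between the time points more than that of Lipa-/- mice.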

How the data were processed

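Livers of 18 male mice in 6 groups of 3 were sequenced as polyadenylated RNA. Per the study's methods, the authors quantified paired reads of 150 bases with Salmon against mouse transcripts of GRCm39 and summed them to genes with tximport. The deposited tables hold estimated counts (19.4% of values were not whole), TPM values within each mouse and effective transcript lengths in bases. A deposited table of the authors' own fold changes and p values was not used. Estimated counts were rounded. Genes with more than 100 reads over the 18 mice were fitted with edgeR 4.0.16 (R 4.3.3), TMM factors and 6 group means, and Lipa-/- was contrasted with WT at 12 weeks. p values were adjusted by Benjamini-Hochberg over all genes tested, and SEs were derived from the F statistic. The pipeline was first tested on simulated data. Values at or under 3 reads were treated as the floor, and depths are given with the results.

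The gene lists and members were chosen with earlier results of these data known, and the lists were described without a set test. Genes were named by rule: Lipa, up to 2 leading members of each list and its called members with the largest change in each direction. Such called members had to average 1 CPM or more over the 6 mice, without overlap between the groups. Further named were the largest log2 fold changes over all genes, also without overlap, and the largest changes in TPM. The rule added the widest spread between Lipa-/- mice and the genes called in the test of time points. A few genes that this rule names are not reported here. Genes with near-identical copies are uncertain. Promoters were cut around the annotated start of each gene in GRCm39. Alternatives were total counts, upper quartile scaling, TMM without Mup genes, length offsets, DESeq2 1.42.0, limma 3.58.1 on log2(TPM + 1), other filters and thresholds, the 6 mice alone, and each mouse left out.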

Additional observations from a re-analysis of the deposited data

Results flagged for a closer look

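For 9 genes the difference between Lipa-/- and WT mice at 12-weeks departed from that at 34-weeks in edgeR's quasi-likelihood test of the difference itself, with 3 mice in each of 4 groups. More positive at 12-weeks were Slc22a29 by 5.28 ± 0.74 on the log2 scale (SE, adjusted p = 0.009), Slc22a27 by 5.12 ± 0.58 (adjusted p = 0.00162), Mmd2 by 4.93 ± 0.83 (adjusted p = 0.0365), Cyp3a59 by 3.17 ± 0.54 (adjusted p = 0.0365), Ces1f by 2.88 ± 0.48 (adjusted p = 0.0365) and Cyp3a25 by 2.21 ± 0.32 (adjusted p = 0.009). More negative were Selenbp2 at -5.22 ± 0.67 (adjusted p = 0.00462), Myc, a growth-promoting transcription factor, at -3.29 ± 0.58 (adjusted p = 0.0498), and Fgfr1 at -2.35 ± 0.40 (adjusted p = 0.0365). WT mice stood at 4.4 to 14.2 CPM at 12-weeks and at 0.826 to 2.02 CPM at 34-weeks for Myc, and at 1.29 to 3.38 CPM and 12 to 17.7 CPM for Mmd2. Slc22a29 did not exceed 0.647 CPM in any mouse of 12-weeks. Slc22a27 and Selenbp2 were called in all 12 fits that left out 1 mouse, Slc22a29 in 11 and Cyp3a25 in 10, and each of the other 5 in 4 or fewer.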

How the results depend on the processing

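The number of genes called between Lipa-/- and WT mice at 12-weeks was 4256. Every alternative stayed within 1.5 times of this total, from 3062 with limma on TPM values to 5688 by the adjusted p alone. The total was 3816 to 4224 with 1 mouse left out. The split by direction moved more. Genes called lower were 1318 in the main fit, 597 with total counts and 417 with limma on TPM values. Genes called higher were 2938, 4057 and 2645 in the same order. S100a9 and Chil3 had no result with DESeq2 and were judged on 16 settings. Of the 146 called genes named in the text, 122 kept their call in all settings that gave a result. Scaling by total counts ended 11 of these calls and limma on log2(TPM + 1) ended 19, among them Mttp, Plin5, Stard4, Ugt1a6a, Clock, Cyp2e1, Ndufs1 and Fasn under both, and Cps1 and Sucla2 under total counts. The cause was not tested. The number called in the test between time points was 9. It was 4 with offsets for transcript length, 4 at an adjusted p under 0.01, 16 without a filter, 61 with limma on TPM values, 171 with DESeq2, and 2 to 66 with 1 of the 12 mice left out. At 12-weeks it was 4 without Lipa-/- mouse 8, 19 without Lipa-/- mouse 9, 3 without WT mouse 1 and 4 without WT mouse 2. At 34-weeks it was 4, 2 and 66 without Lipa-/- mice 4, 5 and 6, and 18 and 4 without WT mice 1 and 3. With the mouse number as a replicate block it was 0. That block could be fitted for this test only, since the Lipa-/- and WT mice of 12-weeks share no number, and the labels tie no animals by number. No paired analysis was possible because of this for the comparison at 12-weeks itself.

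Genes that were not called changed sign as follows. With total counts the log2 fold change was 0.26 for Abca1, 0.43 for Apoe, 0.31 for Cpt1a, 0.40 for Cyp7a1, 0.02 for Igf1 and 0.45 for Il1b. With limma it was 0.28 for Abca1, 0.04 for Apob, 0.32 for Apoe, 0.33 for Cpt1a, 0.39 for Cyp7a1 and 0.48 for Il1b. Apoe was at 0.01 with upper quartile scaling. Cyp7a1 was at 0.04 and Myc at -0.01 with length offsets, and they were at 0.06 and -0.00 with DESeq2. With 1 mouse left out, the values ranged from -0.41 to 0.09 for Abca1, -0.15 to 0.09 for Apoe, -0.36 to 0.27 for Cpt1a, -0.65 to 0.28 for Cyp7a1, -0.26 to 0.75 for Hba-a1, -0.47 to 0.92 for Il1b, -0.26 to 0.54 for Krt19, -0.20 to 0.52 for Myc and -0.39 to 0.27 for Stab2. Genes at or under 3 reads in a group have no measured fold, only a bound.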

Other observations

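Further genes with few reads in WT mice were plain in Lipa-/- mice. Chil1, which encodes a chitinase-like protein, was at 0.0536, 0.144 and 0.0523 CPM in WT mice and at 144, 38.3 and 15.9 CPM in Lipa-/- mice 5, 8 and 9. Chil3, its relative of alternatively activated and recruited macrophages, was at 11.7, 9.24 and 119 CPM in the same mice, against 2 reads over the WT group, a ratio of 1306 with a 95% counting interval of 361 to 10791. The order of the mice thus differed between these related genes, with mouse 5 the highest for Chil1 and mouse 9 for Chil3. Clec4e, a receptor for glycolipids, was at 19.6, 29.2 and 33.8 CPM against 1 read over the WT group, a ratio of 1595 with an interval of 286 to 63034. Il7r, a cytokine receptor of lymphocytes that some macrophages also carry, was even in the 3 Lipa-/- mice (26, 26.6 and 28 CPM) and at most 0.268 CPM in WT mice, while Cd28, a gene of T cells, stood at 1.67 to 3.03 CPM against 3 reads over the WT group.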
